A study of Mus musculus with 32 samples.

Results

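The proteasome genes described here are the rows of the count table whose symbol is Psma, Psmb, Psmc, Psmd, Psme, Psmf or Psmg followed by a number. That rule found 50 of 55401 genes, all annotated as protein coding and spread over 16 chromosomes. Symbols containing -ps, which mark pseudogenes, were left out. Of the 50 genes, 46 had enough counts to be tested, and Psma8, Psmb9, Psmb11 and Psme2b did not. Psmc3ip, a factor of meiotic recombination, and Psme2b match the symbol rule without being established proteasome subunits.

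RNA sequencing was performed on cerebral cortex of 32 mice at 6 weeks of age, after depletion of ribosomal RNA, and each library came from a separately numbered animal. The 3 genotypes, as labelled, were +/+ (12 animals), Ts65Dn;Df(17)2 (10 animals) and Dp(16)1/Df(16)8 (10 animals). Each had equal numbers of animals labelled female and male. The labels give neither the strain background nor the extent of the rearrangements, so what follows on them is background knowledge of these lines. Ts65Dn mice carry a freestanding extra chromosome that joins distal chromosome 16 to the centromeric part of chromosome 17, and the deficiency Df(17)2 returns the chromosome 17 part to its usual copy number. In Dp(16)1 the related region of chromosome 16 is duplicated within the chromosome, and the deficiency Df(16)8 removes the stretch that Ts65Dn does not add. Both aneuploid genotypes therefore carry an additional copy of the same segment, on an extra chromosome in one and within a chromosome in the other, and they share their +/+ controls.

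The 26S proteasome degrades proteins tagged with ubiquitin. Its 20S core is a stack of alpha and beta rings, with the catalytic sites on 3 of the beta subunits. The 19S particle caps the core: its base holds a ring of ATPases that unfold substrates, and its lid removes ubiquitin. Dedicated chaperones build core and base, activators of the Psme group can cap the core in place of the 19S particle, and inducible catalytic subunits form the immunoproteasome, which yields peptides for MHC class I presentation. Neurons depend on the proteasome for turnover of synaptic proteins. Only Psmg1 lies in the segment with an additional copy. It encodes a chaperone that, paired with the Psmg2 product, builds the alpha ring.

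Promoter sequence bears on whether the members share the elements through which their joint control is usually described. Windows from 250 bases before to 50 after each start were read from RefSeq (GRCm38.p6), and 42 member genes had at least 1 window, 45 windows in all. The antioxidant response element, searched as TGACNNNGC on both strands, is the element bound by Nfe2l1 and Nfe2l2, which drive subunit genes when proteasome activity falls. It was found in 13.3% of the member windows and in 12.4% of all 32851 windows, so its share among members was close to that of promoters in general. Matches are shown for the catalytic subunits Psmb5 and Psmb6, with the element in capitals.
Psmb5, chr14:54618026-54618050, minus strand: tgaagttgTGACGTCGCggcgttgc
Psmb6, chr11:70525340-70525364, plus strand: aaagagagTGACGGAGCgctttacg

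The interferon-stimulated response element core, searched on both strands as GAAA, any 2 bases and GAAA, was found in 11.1% of the member windows (5 of 45) and in 3.44% of all windows. The interferon gamma activated site, searched as TTCNNNGAA, was found in 6.67% of the member windows (3 of 45) and in 8.3% of all windows. Most of these matches lay in other members. Those of the first element were in Psmd4, Psmd9, Psmb3, Psmg4 and Psme1, and those of the second in Psmd2, Psmg1 and Psmb8. The 2 interferon elements are shown where they fall in genes of the immunoproteasome and its activator, with the matched letters in capitals.
Psme1, chr14:55578495-55578520, plus strand: agctgtgcTTTCGCTTTCccttcccg
Psmb8, chr17:34198090-34198114, plus strand: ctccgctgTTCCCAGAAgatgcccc

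The 250 bases upstream of Psmg1 (chr16:95990961-95991210, minus strand) are shown because this member has the additional copy. They are 66.0% G and C, and hold 1 match to TTCNNNGAA, in capitals, from 243 to 235 bases before the start.
Psmg1: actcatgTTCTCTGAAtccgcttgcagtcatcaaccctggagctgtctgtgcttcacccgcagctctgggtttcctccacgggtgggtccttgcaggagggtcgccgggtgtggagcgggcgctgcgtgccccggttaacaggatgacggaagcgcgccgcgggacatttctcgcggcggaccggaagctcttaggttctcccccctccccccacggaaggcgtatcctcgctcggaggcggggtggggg

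These are matches of letters only. Psme2, the activator gene that rose in 1 genotype, had no match to any of the 3 patterns in its window.

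Library totals ran from 5795479 to 11189548 counts. Sex-linked transcripts matched the labelled sex in 31 of 32 libraries. The library of Dp(16)1/Df(16)8 replicate 2, labelled female, had 14 Xist counts and 1849 counts of Y-linked genes. In these bulk samples, fewer cells of a type and less RNA per cell cannot be told apart. The labelled tissue was checked by markers. The summed level of 6 cortical excitatory neuron markers, with none at 0, ran from 2240 to 5050 CPM (counts relative to library size, scaled by TMM factors) in +/+, from 2320 to 3830 in Ts65Dn;Df(17)2 and from 2220 to 4750 in Dp(16)1/Df(16)8. The sum of 10 striatal neuron markers ran from 281 to 3830 CPM, from 820 to 3390 and from 288 to 3810 in the same order, with medians of 693, 2450 and 2560 and no marker at 0. The ranges overlapped. All 6 estimates for the cortical markers were below 0 in both aneuploid genotypes, with median log2 fold changes of -0.51 and -0.32, and 0 of 6 were called in Dp(16)1/Df(16)8. Of the striatal markers, 0 of 10 were called in any contrast, and all 10 estimates were above 0 in both (medians 0.78 and 0.55).

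Proteasome genes made up a steady share of the cortical RNA. The 50 members together took 0.208% ± 0.00691 of all counts in +/+ (SD, n = 12), 0.209% ± 0.00719 in Ts65Dn;Df(17)2 (SD, n = 10) and 0.21% ± 0.00388 in Dp(16)1/Df(16)8 (SD, n = 10). The groups overlapped, and all 32 libraries lay between 0.1952% and 0.2201%.

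Levels of different genes can be set side by side only per length, here as CPM per kilobase of the annotated principal transcript in +/+ animals. The ATPase Psmc5 stood highest at 66.7 ± 6.38 (SD, n = 12), followed by the scaffold subunit Psmd2 at 56.1 ± 2.46 and the ATPase Psmc1 at 52.4 ± 2.78. Psmd2 and Psmc1 were closer to each other than the sum of their SDs. The medians by role were similar for the structural parts: 34 for the alpha ring, 33.8 for the non-catalytic beta subunits, 44 for the constitutive catalytic subunits, 42 for the base ATPases, 37.2 for the other base subunits and 30.4 for the lid. These constitutive subunits spanned 16.7 (Psmd13) to 66.7 (Psmc5).

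Most genes outside the 26S particle were lower. The activators had a median of 13.7 CPM per kilobase, led by Psme3, the nuclear activator, at 35.2 ± 2.07. The chaperones had medians of 4.97 for the core and 5.44 for the base, and the inhibitor Psmf1, which blocks the core in vitro, had 6.91 ± 0.714. Of the immunoproteasome subunits, Psmb10 reached 8.35 ± 1.58, Psmb8 0.569 ± 0.216 and Psmb9 0.167 ± 0.0916. The thymus subunit gene Psmb11 stood at 0.0609 ± 0.0575 and the testis subunit gene Psma8 at 0.127 ± 0.117. With all annotated exons as the length, Psmc5, Psmc1 and Psmd2 were again the first 3, while Psmb7 moved from place 4 to 17 and Psma7 from 6 to 25, so the order within the structural subunits depends on the transcript chosen.

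**Figure D1:**
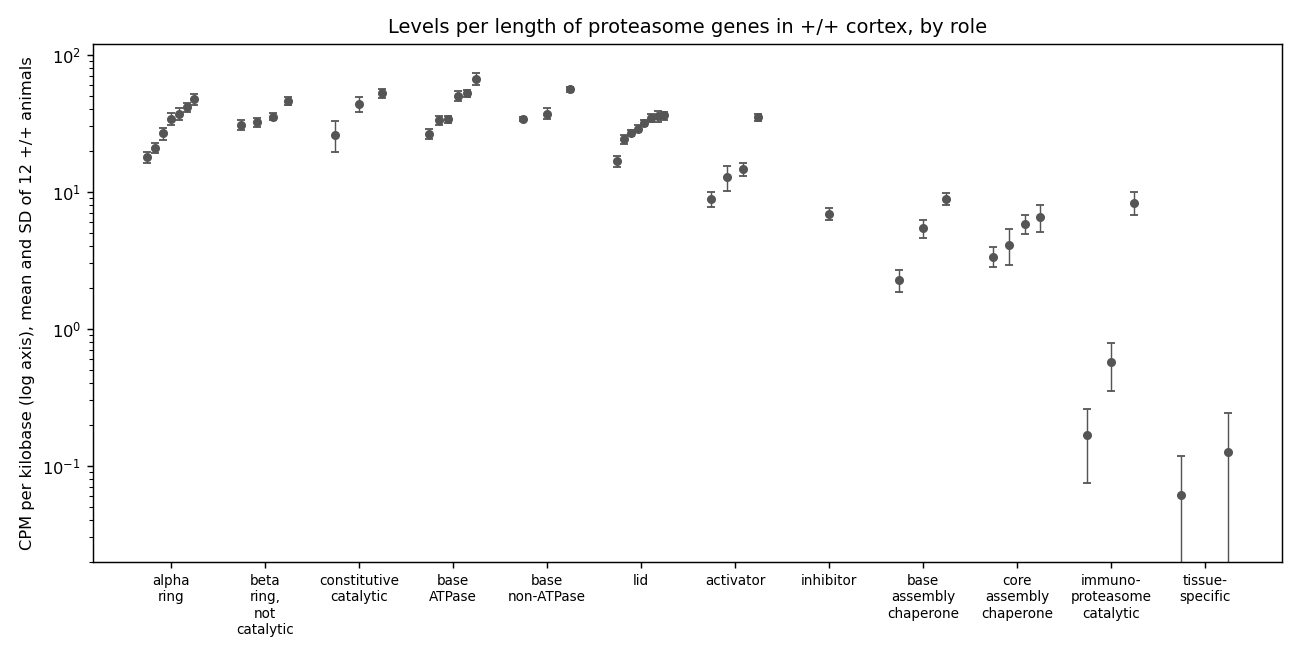
Level per length of the members with counts other than Psmc3ip, in CPM per kilobase of principal transcript on a log axis, arranged by role. Points are means and bars SDs over 12 +/+ animals. The subunits of the 26S particle lie between 16.7 and 66.7, the chaperones between 2.27 and 8.89, and Psmb8 and Psmb9 below 1.

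The first comparison asks which proteasome genes differed between Ts65Dn;Df(17)2 and +/+ cortex. Psmg1 and Psme2, a subunit of the interferon-inducible activator, were higher, and no member was lower. By the quasi-likelihood test of edgeR, with Benjamini-Hochberg values adjusted over all genes (threshold 0.05), 2 of 46 members were called, beside 3.97% of the 16042 genes tested (1.75% higher and 2.22% lower). The median log2 fold change was -0.02 over the members, with 18 of 46 values above 0, and 0.0047 over all tested genes, with 51.4% above 0. An unadjusted p under 0.05 was reached by 5 of 46 members, beside 21.8% of all genes. For 34 of 46 members the 95% interval lay within a fold of 1.2 in either direction. The share of all tested genes within that fold was not computed. The median SE was 0.0514 over the members and 0.0942 over all genes, so members were estimated more precisely.

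For Dp(16)1/Df(16)8 against +/+, no member was called (0 of 46, beside 0.573% of all genes, 0.418% higher and 0.156% lower) by edgeR, and none by DESeq2 or limma voom. An unadjusted p under 0.05 was reached by 6 of 46 members, beside 12.8% of all genes. The median log2 fold change was 4e-04 over the members, with 24 of 46 values above 0, and 0.0014 over all genes, with 50.5% above 0. Between the 2 aneuploid genotypes no member was called either (0 of 46, beside 0.0499% of all genes, 0.0436% higher and 0.00623% lower) by any of the 3 tools, with an unadjusted p under 0.05 in 4 of 46 members and in 4.1% of all genes. There 18 of 46 members, and 50.1% of all genes, had a log2 fold change above 0.

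**Figure D2:**
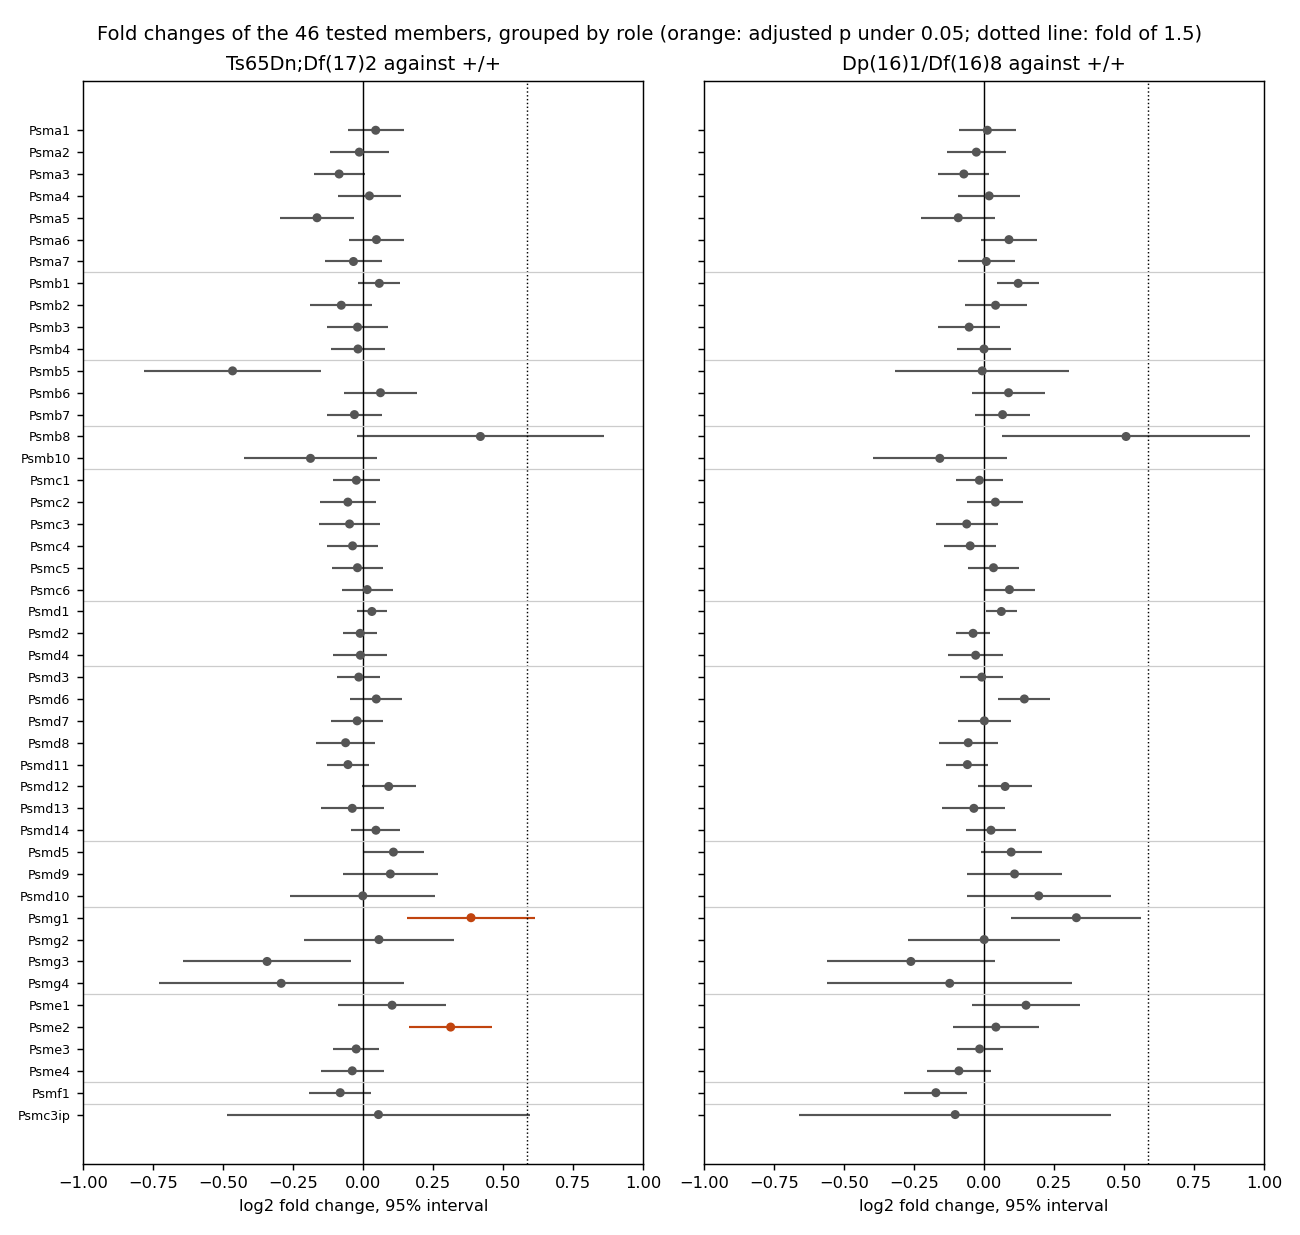
Log2 fold changes of the 46 tested members in each aneuploid genotype against +/+, grouped by role; points are estimates and bars 95% intervals, and orange marks an adjusted p under 0.05. Psmg1 and Psme2 are called against +/+ in Ts65Dn;Df(17)2, no member is called in Dp(16)1/Df(16)8, and the 26S subunits other than Psmb5 lie close to 0.

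Most of the 31 constitutive 26S subunits among the members had estimates close to 0 with narrow intervals. None was called in any of the 3 contrasts, and the 95% interval lay within a fold of 1.2 for 29 of 31 in Ts65Dn;Df(17)2, for 30 of 31 in Dp(16)1/Df(16)8 and for 30 of 31 between them. Their median log2 fold changes were -0.02, 6e-04 and -0.01 in that order. All 17 genes of the 19S particle that match the symbol rule were within that fold in every contrast. The 19S subunit genes Adrm1 and Sem1 do not match the rule and are not among the 17. Without the share over all genes, these counts do not set the subunits apart from other genes measured as precisely.

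Averaged over its 14 genes, the 20S core deviated from the same-sex +/+ mean by -0.05 ± 0.0798 on the log2 scale in Ts65Dn;Df(17)2 (SD, n = 10) and by 0.01 ± 0.052 in Dp(16)1/Df(16)8, where +/+ animals had an SD of 0.0568. The Ts65Dn;Df(17)2 mean includes Psmb5, which had the lowest log2 fold change of the 14, at -0.47. The median of the 14 was -0.02. The 17 genes of the 19S particle deviated by -0.0096 ± 0.0476 and 0.0064 ± 0.047, with an SD of 0.0442 in +/+. Each difference was smaller than the SD between animals, and the groups overlapped. Correlations between subunit mRNAs were computed on log2 CPM across 32 libraries, after the mean of each genotype and labelled sex was removed. Over the 465 pairs of the 31 subunits the median correlation was weak, at 0.124, with 71.6% of pairs above 0. Counting error, which lowers such correlations, was not removed. The pairs share libraries and scaling, so this is a description only.

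**Figure D3:**
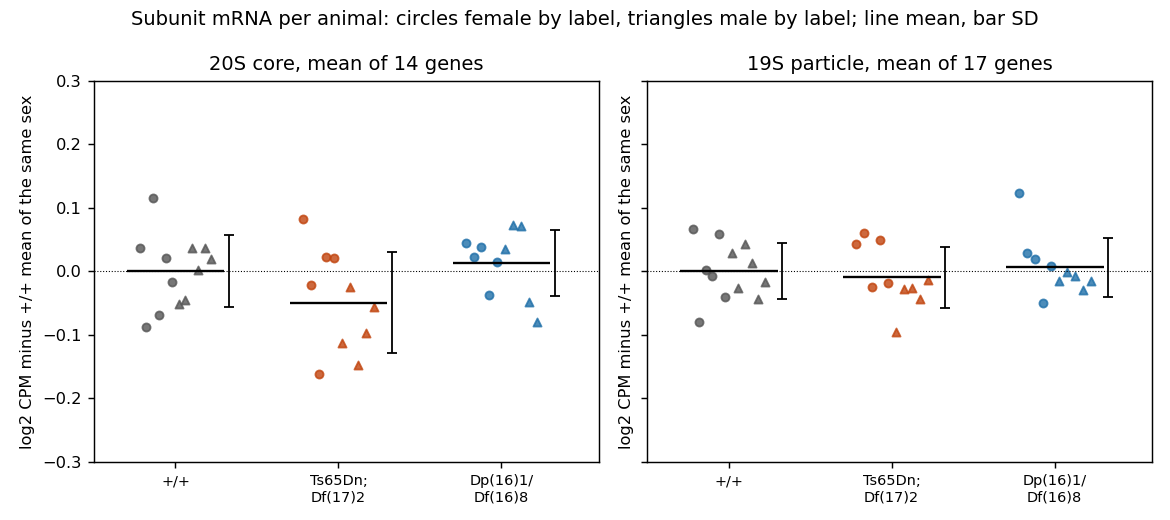
Mean log2 CPM of the 20S core genes (left) and the 19S genes (right) in each animal, relative to +/+ animals of the same labelled sex; lines are group means and bars SDs. The 3 genotypes overlap in both panels, and Dp(16)1/Df(16)8 replicate 1 lies highest in the 19S panel at 0.1237.

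Outside the catalytic subunits, 3 further 26S subunits are given by value. Psmb1, a beta ring subunit, had 62.3 ± 3.39 CPM in +/+ (SD, n = 12), 67.7 ± 2.93 in Dp(16)1/Df(16)8 (SD, n = 10) and 64.8 ± 4.13 in Ts65Dn;Df(17)2 (SD, n = 10). It lay above the +/+ mean in 10 of 10 Dp(16)1/Df(16)8 animals, with a log2 fold change of 0.12 (SE 0.0371) and an adjusted p of 0.144 in edgeR's test. The groups overlapped, and the difference did not pass. In animals labelled female Psmb1 averaged 69.5 ± 2.72 CPM in Dp(16)1/Df(16)8 (SD, n = 5) and 59.4 ± 1.35 in +/+ (SD, n = 6). In those labelled male it averaged 65.9 ± 1.93 (SD, n = 5) and 65.2 ± 1.92 (SD, n = 6), a smaller difference. The animals labelled female include Dp(16)1/Df(16)8 replicate 2 (69.5 CPM), whose sex-linked transcripts did not match that label. No interaction of genotype and sex was called for Psmb1 (unadjusted p = 0.00657, adjusted p = 0.996 in edgeR's test). The lid subunit Psmd6 had a log2 fold change of 0.14 in Dp(16)1/Df(16)8 (SE 0.0454, adjusted p = 0.164), again above the +/+ mean in 10 of 10 animals. Psma5, of the alpha ring, had a log2 fold change of -0.17 (SE 0.0651, adjusted p = 0.13) in Ts65Dn;Df(17)2. These 3 genes are named for their p, after their values were seen.

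The catalytic sites lie on Psmb6 (caspase-like), Psmb7 (trypsin-like) and Psmb5 (chymotrypsin-like activity). Psmb6 had 35.1 ± 4.39 CPM in +/+ (SD, n = 12), 36.7 ± 3.02 in Ts65Dn;Df(17)2 and 37.3 ± 3.26 in Dp(16)1/Df(16)8 (SD, n = 10 each). Psmb7 had 60.7 ± 4.72, 59.4 ± 3.44 and 63.5 ± 5.91 CPM in that order. For both genes the groups overlapped and differed by less than the spread between animals.

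Psmb5 varied far more. Its lowest, median and highest values were 12.5, 23.7 and 37.7 CPM in +/+, 10.9, 16.6 and 27 in Ts65Dn;Df(17)2, and 16.7, 22.6 and 30.8 in Dp(16)1/Df(16)8. The groups overlapped, with 8 of 10 Ts65Dn;Df(17)2 animals below the +/+ mean. The log2 fold change against +/+ was -0.47 (SE 0.155) in Ts65Dn;Df(17)2 with an adjusted p of 0.0747 in edgeR's test, and -0.007 (SE 0.152, adjusted p = 0.99) in Dp(16)1/Df(16)8.

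The direct contrast of the aneuploid genotypes gave -0.46 for Psmb5 (SE 0.161, adjusted p = 1). Neither difference passed in the main test. DESeq2 called Psmb5 in Ts65Dn;Df(17)2 (adjusted p = 0.0409), as did edgeR without Ts65Dn;Df(17)2 replicate 1 (0.0499) or replicate 5 (0.0477). Its coefficient of variation over all 32 libraries was 28.9%, where counting alone gives 7.76%. Among Ts65Dn;Df(17)2 animals it averaged 19.7 ± 6.94 CPM in those labelled female and 14.4 ± 3.47 in those labelled male (SD, n = 5 each). The same means were 25 ± 6.62 and 22 ± 5.24 in +/+ (SD, n = 6 each), and 23.4 ± 2.79 and 23.2 ± 6.76 in Dp(16)1/Df(16)8 (SD, n = 5 each). No interaction of genotype and sex was called for Psmb5 (unadjusted p = 0.364 in edgeR's test).

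The inducible subunits Psmb9, Psmb10 and Psmb8 take the places of Psmb6, Psmb7 and Psmb5. Psmb8 had a lowest, median and highest value of 0.31, 0.93 and 1.52 CPM in +/+, 0.95, 1.19 and 1.66 in Ts65Dn;Df(17)2, and 0.508, 1.47 and 2.18 in Dp(16)1/Df(16)8. It lay above the +/+ mean in 10 of 10 Ts65Dn;Df(17)2 and 7 of 10 Dp(16)1/Df(16)8 animals, though the groups overlapped. The log2 fold changes were 0.42 (SE 0.217, adjusted p = 0.26) and 0.51 (SE 0.218, adjusted p = 0.33) in edgeR's test, and neither passed. With 280 counts in all 32 libraries, its coefficient of variation of 36.2% was close to the 33.8% of counting alone.

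Psmb9 was below the level for testing. Its summed counts were 20 in +/+, 42 in Ts65Dn;Df(17)2 and 33 in Dp(16)1/Df(16)8, a ratio to +/+ of 2.28 (95% interval 1.31 to 4.1) and 2 (1.11 to 3.68) after scaling by library size, with intervals that cover counting error only. Single animals ran from 0.12 to 0.464 CPM in +/+, from 0.229 to 1.03 in Ts65Dn;Df(17)2 and from 0 to 0.862 in Dp(16)1/Df(16)8, so the groups overlapped. In a fit with no filter on low counts, the log2 fold changes of Psmb9 were 1.13 (adjusted p = 0.151) and 0.95 (adjusted p = 0.486). Psmb9 shares 212 exon bases with Tap1 on the opposite strand. The strand setting of the counting is not given in the sources used here, so it is not known whether reads of these genes were told apart there.

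Psmb10, the most abundant of the inducible subunits, went the other way, with 10.9 ± 2.07 CPM in +/+ (SD, n = 12), 9.61 ± 1.05 in Ts65Dn;Df(17)2 and 9.78 ± 2.38 in Dp(16)1/Df(16)8 (SD, n = 10 each). Its log2 fold changes of -0.19 (adjusted p = 0.357) and -0.16 (adjusted p = 0.582) did not pass in edgeR's test.

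The 11S activator, a ring of Psme1 and Psme2 subunits, opens the core and is inducible by interferon gamma. Psme2 (chromosome 14, 55587441 to 55591113) had a lowest, median and highest value of 6.64, 8.42 and 10.2 CPM in +/+, 8.58, 10.6 and 12.1 in Ts65Dn;Df(17)2, and 7.79, 8.53 and 9.87 in Dp(16)1/Df(16)8. All 10 Ts65Dn;Df(17)2 animals lay above the +/+ mean, with overlap at the edges, while Dp(16)1/Df(16)8 lay within the +/+ range. The log2 fold change was 0.31 (SE 0.0733), a fold of 1.24 (95% interval 1.12 to 1.38), with an adjusted p of 0.0162 in edgeR's test. In Dp(16)1/Df(16)8 it was 0.04 (SE 0.075, adjusted p = 0.85).

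The direct contrast for Psme2 between the aneuploid genotypes was 0.27 (SE 0.0768, unadjusted p = 0.00132, adjusted p = 0.762), so a difference between them did not pass over all genes. The Ts65Dn;Df(17)2 call held in each of 32 fits that left out 1 library. It was lost with the striatal marker score as a term (log2 fold change 0.26, adjusted p = 0.127) and with terms for blocks of neighbouring animal numbers (0.25, adjusted p = 0.143). The part of striatal tissue in this result was not tested beyond that fit.

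The partner Psme1 had 14.3 ± 2.93 CPM in +/+ (SD, n = 12), 15.3 ± 2.33 in Ts65Dn;Df(17)2 and 15.7 ± 1.84 in Dp(16)1/Df(16)8 (SD, n = 10 each). Its log2 fold changes of 0.10 (SE 0.0942) and 0.15 (SE 0.0947) were not called, with adjusted p of 0.561 and 0.513 in edgeR's test. Psme3 differed by -0.03 (SE 0.0403) and -0.02 (SE 0.0404) on the log2 scale, and Psme4, which caps the core in a ubiquitin-independent route, by -0.04 (SE 0.0556) and -0.09 (SE 0.0558). The inhibitor Psmf1 had 26.3 ± 2.72 CPM in +/+ (SD, n = 12), 24.8 ± 1.17 and 23.3 ± 2.17 in the aneuploid genotypes (SD, n = 10 each). In each of them 1 of 10 animals lay above the +/+ mean, yet the log2 fold changes of -0.08 (adjusted p = 0.394) and -0.17 (adjusted p = 0.172) did not pass.

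**Figure D4:**
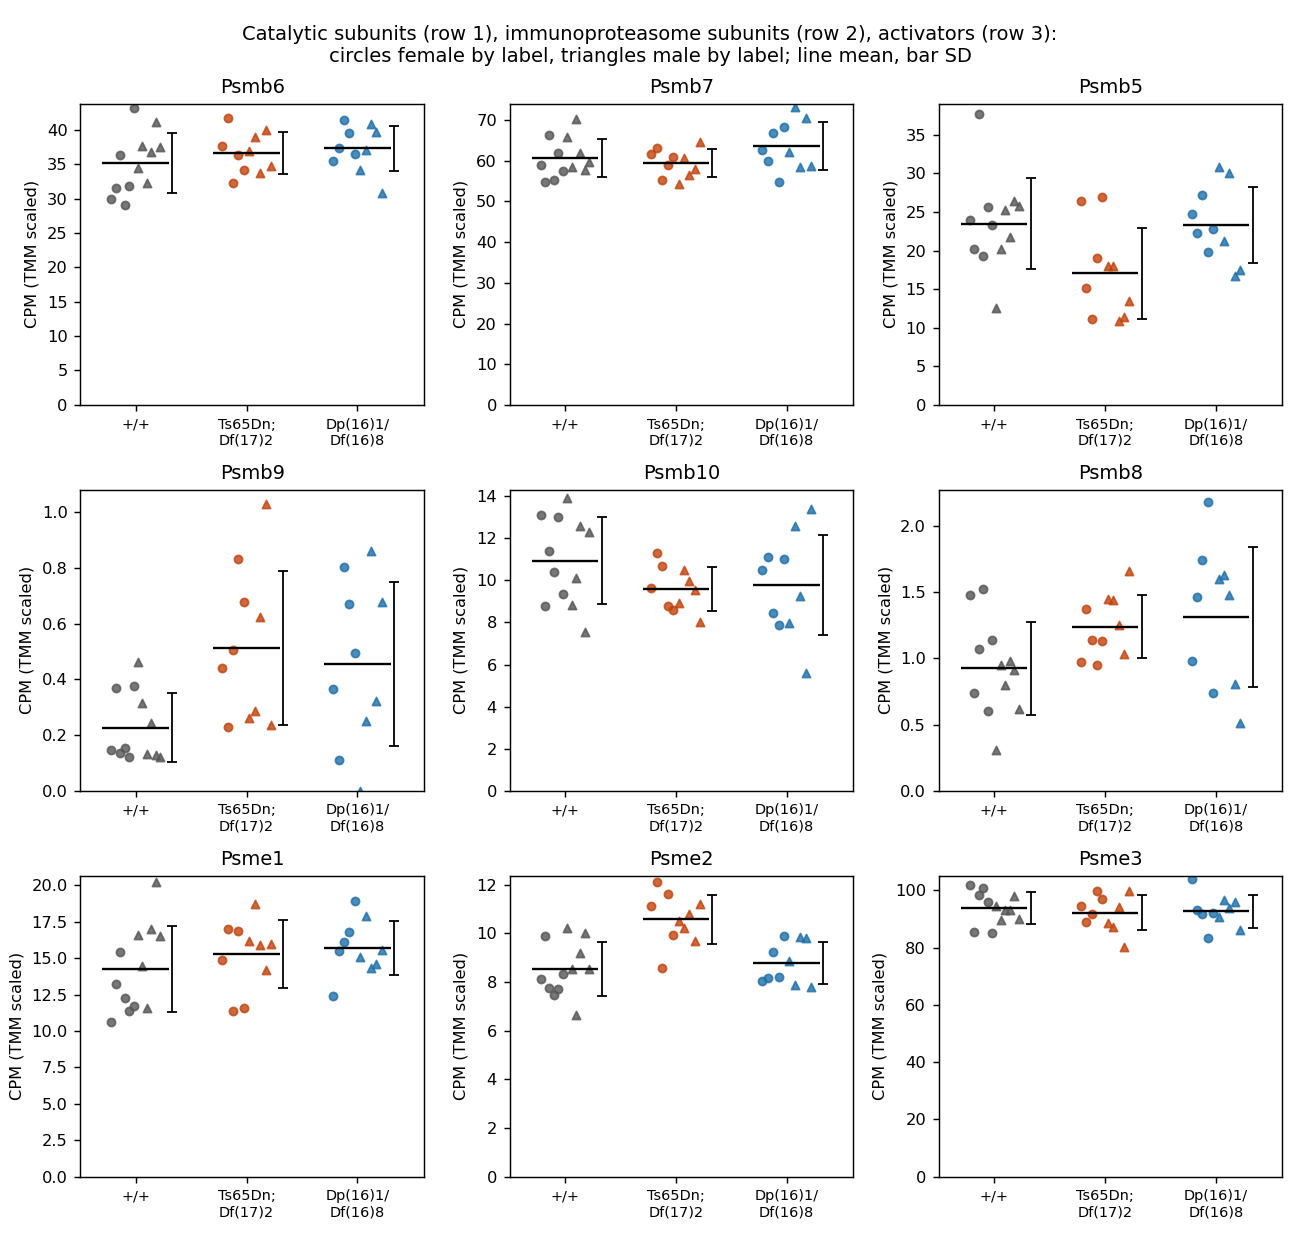
CPM in each animal for the constitutive catalytic subunits (row 1), the immunoproteasome subunits that replace them (row 2) and the activators Psme1, Psme2 and Psme3 (row 3), on axes that start at 0; lines are means and bars SDs. Psme2 is shifted upward in Ts65Dn;Df(17)2 (8.58 to 12.1), Psmb5 is widely spread in all groups, and Psmb9 and Psmb8 reach at most 2.18 CPM.

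Psmg1 (chromosome 16, 95979933 to 95990960, minus strand) tests how the single member with an additional copy was expressed. Its lowest, median and highest values were 4.81, 6.09 and 7.62 CPM in +/+, 4.54, 8.17 and 9.38 in Ts65Dn;Df(17)2, and 5.23, 7.12 and 11.4 in Dp(16)1/Df(16)8. In each aneuploid genotype 9 of 10 animals lay above the +/+ mean, and the groups overlapped. The log2 fold change was 0.38 (SE 0.112, adjusted p = 0.0482) in Ts65Dn;Df(17)2, a fold of 1.31 (95% interval 1.11 to 1.53). In Dp(16)1/Df(16)8 it was 0.33 (SE 0.114, adjusted p = 0.226), a fold of 1.26 (1.07 to 1.48), which did not pass in edgeR's test.

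Psmg1 was not shown to differ between the aneuploid genotypes, with a fold of 1.04 and a 95% interval from 0.882 to 1.22. The Ts65Dn;Df(17)2 call lies at the edge of the threshold. It was lost in 22 of 32 fits that left out 1 library, with adjusted p up to 0.088: these were +/+ replicates 1, 2, 5, 7, 8, 9, 10 and 12, Ts65Dn;Df(17)2 replicates 1, 2 and 4 to 10, and Dp(16)1/Df(16)8 replicates 2, 5, 6, 8 and 9. The log2 fold change stayed between 0.34 and 0.45 over these fits. Without Ts65Dn;Df(17)2 replicate 3, the lowest animal, it was 0.45 (adjusted p = 0.0156). The call was also lost in 5 of 10 other settings, with the highest adjusted p of 0.185 under terms for animal number blocks.

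An additional copy of a gene corresponds to a fold of 1.5 if mRNA follows copy number. Over the 77 tested genes from Mrpl39 to Zbtb21 (chromosome 16, 84717576 to 97962622, GRCm38, bounds from background knowledge), the median fold was 1.5 in Ts65Dn;Df(17)2 and 1.54 in Dp(16)1/Df(16)8. Psmg1 came 69th and 71st of the 77 when these were ordered from the highest fold. The median SE of the log2 fold change over the 77 genes was 0.0739 and 0.0744, smaller than that of Psmg1 in both genotypes, so its place is less certain than for most of them. The 95% interval of the Psmg1 fold reached 1.53 in the first genotype and ended at 1.48 in the second. Ts65Dn;Df(17)2 replicate 3 had a Psmg1 level of 0.756 times the same-sex +/+ mean while the median fold of the segment in that animal was 1.49. Dp(16)1/Df(16)8 replicate 3 had 0.863 for Psmg1 and 1.54 for the segment. The segment was thus at the raised level in both animals in which Psmg1 was not.

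The Psmg2 product forms a heterodimer with that of Psmg1, and Psmg2 lies outside the segment. Psmg2 had 6.92 ± 1.54 CPM in +/+ (SD, n = 12), 7.13 ± 1.72 in Ts65Dn;Df(17)2 and 6.92 ± 1.07 in Dp(16)1/Df(16)8 (SD, n = 10 each). Its log2 fold changes were 0.06 (SE 0.132) and 1e-04 (SE 0.133), with 95% intervals from -0.21 to 0.33 and from -0.27 to 0.27. The groups overlapped over nearly their whole range.

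Within each animal, log2 CPM of Psmg1 minus that of Psmg2 averaged -0.16 ± 0.393 in +/+ (SD, n = 12), 0.16 ± 0.544 in Ts65Dn;Df(17)2 and 0.13 ± 0.337 in Dp(16)1/Df(16)8 (SD, n = 10 each). It was above 0 in 3 of 12, 5 of 10 and 6 of 10 animals, and the groups overlapped. Against +/+, the pair shifted by 0.33 (permutation p = 0.117, adjusted over 3 pairs of genotypes 0.176) and by 0.29 (permutation p = 0.0796, adjusted 0.176), both tests two-sided with 100000 permutations. Neither shift passed, and the aneuploid genotypes differed by 0.03 (permutation p = 0.868). By labelled sex the mean was 0.07 in females and -0.39 in males of +/+ (n = 6 each), and -0.17 in females and 0.50 in males of Ts65Dn;Df(17)2 (n = 5 each). In Dp(16)1/Df(16)8 it was 0.10 in females and 0.16 in males (n = 5 each).

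The Psmg2 means by labelled sex lay in opposite orders in +/+ and Ts65Dn;Df(17)2. Psmg2 averaged 5.89 ± 1.17 CPM in females and 7.95 ± 1.15 in males of +/+ (SD, n = 6 each), against 8.43 ± 0.657 in females and 5.82 ± 1.42 in males of Ts65Dn;Df(17)2 (SD, n = 5 each). The sexes overlapped in both, from 4.72 to 7.5 and from 6.64 to 9.9 CPM in +/+, and from 7.34 to 8.96 and from 4.37 to 8.14 CPM in Ts65Dn;Df(17)2. The estimated Psmg2 effect in Ts65Dn;Df(17)2 was lower in males than in females by 0.95 on the log2 scale. Across all genes no interaction of genotype and sex was called (0%, 0 of 46 members) by edgeR, and no member by DESeq2 or limma voom, with an unadjusted p under 0.05 in 4.22% of genes. Psmg2 had the smallest p of the members (unadjusted p = 0.00023, adjusted p = 0.918 in edgeR's quasi-likelihood test), followed by Psmb1 (unadjusted p = 0.00657).

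The chaperones Psmg3 and Psmg4 form the other heterodimer of alpha ring assembly. Psmg3 had 2.98 ± 0.497 CPM in +/+ (SD, n = 12), 2.35 ± 0.547 in Ts65Dn;Df(17)2 and 2.45 ± 0.744 in Dp(16)1/Df(16)8 (SD, n = 10 each). Its log2 fold changes were -0.34 (SE 0.147, adjusted p = 0.165) and -0.26 (SE 0.147, adjusted p = 0.454). Psmg4 had -0.29 (SE 0.215) and -0.12 (SE 0.214). None of these passed in edgeR's test, and 1 of 10 Ts65Dn;Df(17)2 animals lay above the +/+ mean for Psmg3. Pomp, which guides beta subunits onto the alpha ring, had 46.5 ± 3.48 CPM in +/+ (SD, n = 12) and log2 fold changes of -0.03 (SE 0.0446) and -0.01 (SE 0.0447).

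**Figure D5:**
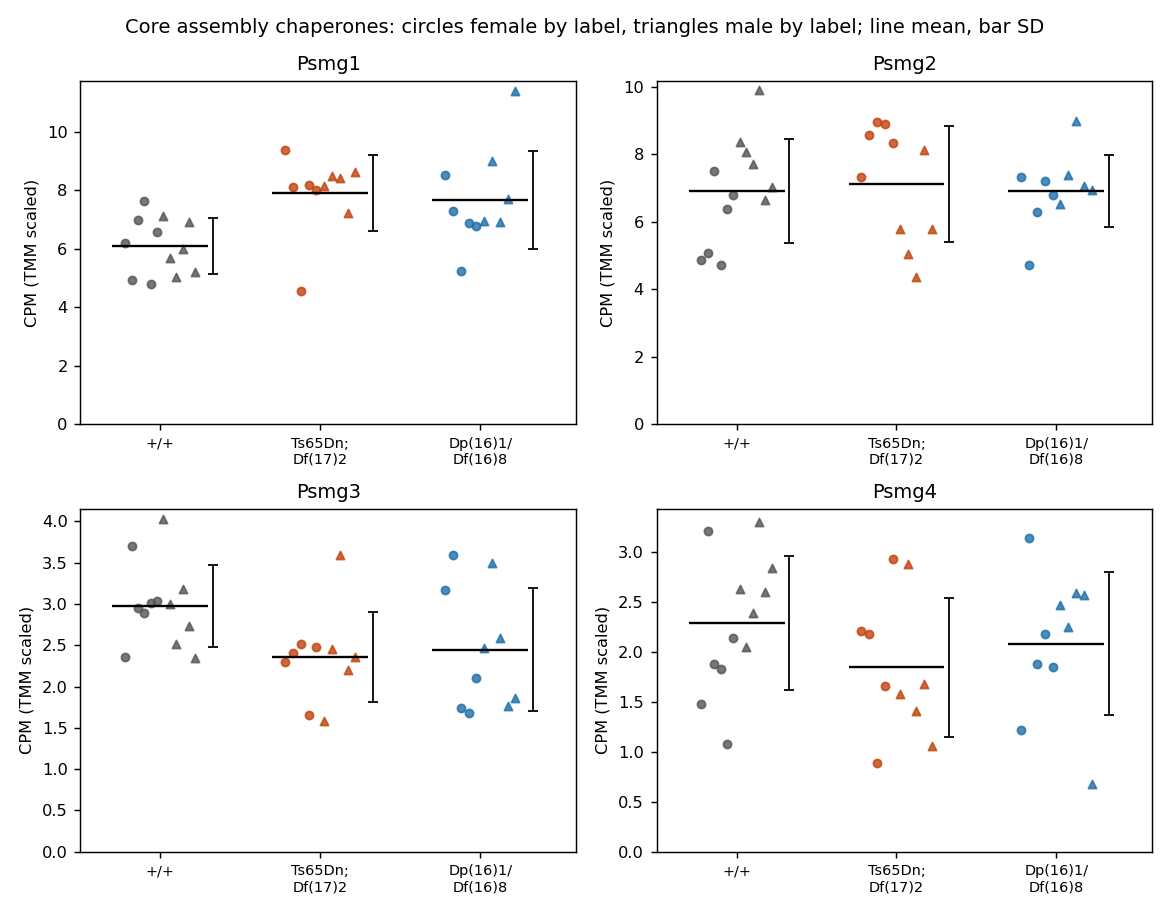
CPM of the 4 core assembly chaperones in each animal, on axes that start at 0; circles are animals labelled female and triangles male, lines are means and bars SDs. Psmg1 means are higher in both aneuploid genotypes, with overlap of the groups and 1 Ts65Dn;Df(17)2 animal at 4.54. The difference is called in Ts65Dn;Df(17)2 only. The Psmg2 means by labelled sex lie in opposite orders in +/+ and Ts65Dn;Df(17)2, with overlap of the sexes in both.

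Base assembly is guided by Psmd5, Psmd9 and Psmd10, and none was called. Their log2 fold changes were 0.11, 0.10 and -0.0016 in Ts65Dn;Df(17)2, and 0.10, 0.11 and 0.19 in Dp(16)1/Df(16)8, the last being Psmd10 with an SE of 0.126. Psmd10, also known as gankyrin, had 3.24 ± 0.61 CPM in +/+ (SD, n = 12) and 3.72 ± 0.759 in Dp(16)1/Df(16)8 (SD, n = 10). Psmc3ip had 1.14 ± 0.488 CPM in +/+ (SD, n = 12) and log2 fold changes of 0.05 (SE 0.266) and -0.10 (SE 0.274). It shares 385 exon bases with Mlx on the opposite strand. Without the strand setting, it is not known whether reads of these genes were told apart there.

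Of the other members below the level for testing, Psma8 had 19 counts in +/+, 45 in Ts65Dn;Df(17)2 and 30 in Dp(16)1/Df(16)8. The ratios to +/+ were 2.57 (95% interval 1.47 to 4.65) and 1.91 (1.04 to 3.6), covering counting error only. Single animals overlapped, from 0 to 0.531 CPM in +/+, from 0 to 1.02 in Ts65Dn;Df(17)2 and from 0.169 to 0.725 in Dp(16)1/Df(16)8. With no filter on low counts its log2 fold changes were 1.29 (adjusted p = 0.133) and 0.90 (adjusted p = 0.56) in edgeR's test. Psmb11 had 23, 14 and 18 counts, with ratios of 0.661 (0.314 to 1.34) and 0.949 (0.482 to 1.84). Psme2b was at 0 in every library.

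The wider pathway was read from lists of genes that are not members. Of 9 measured proteasome-associated and late assembly factors, including Pomp, Usp14, Uchl5 and the 19S subunit genes Adrm1 and Sem1, none was called in any contrast. Sem1 ran from 11.6 to 17.6 CPM in +/+, from 16 to 22 in Ts65Dn;Df(17)2 and from 12.9 to 21.9 in Dp(16)1/Df(16)8. The same held for 4 genes of transcriptional control (Nfe2l1, Nfe2l2, Ddi2 and Ngly1) and for 6 genes of ubiquitin and its activating enzymes. Of 8 genes that deliver substrates, Ubqln4, a shuttle that binds ubiquitin and the proteasome, fell in Ts65Dn;Df(17)2: it had 112 ± 10.1 CPM in +/+ (SD, n = 12) and 97.1 ± 9.64 in that genotype (SD, n = 10), with a log2 fold change of -0.20 (SE 0.0555, adjusted p = 0.0381). The other 7 were not called, and none of the 8 was in Dp(16)1/Df(16)8. There Ubqln4 was also below the +/+ mean in all animals but replicate 1 (124 CPM), the others running from 90.4 to 111 CPM. The call of Ubqln4 was lost in 10 of 32 fits that left out 1 library (+/+ replicates 1, 4, 5 and 10, Ts65Dn;Df(17)2 replicates 1, 2, 4, 6, 7 and 8), with adjusted p up to 0.0799, and in 4 of 10 other settings, with adjusted p up to 0.161. Its log2 fold change stayed between -0.21 and -0.18 over those settings, and with the striatal marker score as a term it was -0.21 (adjusted p = 0.113).

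A list of 10 genes of MHC class I antigen processing, which use the peptides that the immunoproteasome makes, had no call in Dp(16)1/Df(16)8. In Ts65Dn;Df(17)2 Tap2, a subunit of the peptide transporter, rose. It had 3.79 ± 1.1 CPM in +/+ (SD, n = 12) and 5.24 ± 0.782 in Ts65Dn;Df(17)2 (SD, n = 10), a log2 fold change of 0.47 (SE 0.137, adjusted p = 0.0488). It lay above the +/+ mean in 10 of 10 Ts65Dn;Df(17)2 animals. In Dp(16)1/Df(16)8 the log2 fold change of Tap2 was 0.38 (adjusted p = 0.262 in edgeR's test).

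Over the 10 genes, 8 log2 fold changes were above 0 in each aneuploid genotype, with medians of 0.26 and 0.33 beside 0.0047 and 0.0014 over all genes. The contrasts share their +/+ animals. The call of Tap2 held in 9 of the 32 fits that left out 1 library, with adjusted p up to 0.0968. It held without +/+ replicates 6, 8, 11 and 12, Ts65Dn;Df(17)2 replicate 10 and Dp(16)1/Df(16)8 replicates 1, 4, 7 and 10, and was lost without any other library. It held in 5 of 10 other settings, with log2 fold changes from 0.37 to 0.49. With the striatal marker score as a term, its log2 fold change in Ts65Dn;Df(17)2 was 0.37 (adjusted p = 0.267) and did not pass. H2-D1 and H2-K1, the presenting molecules, varied widely between animals, with coefficients of variation of 87.2% and 51.5% over all libraries. Summed levels of 7 microglial markers, with none at 0, ran from 231 to 358 CPM in +/+, from 278 to 318 in Ts65Dn;Df(17)2 and from 249 to 316 in Dp(16)1/Df(16)8. Of these, 1 of 7 was called, Ctss, a lysosomal protease gene, higher in Ts65Dn;Df(17)2 (log2 fold change 0.44, SE 0.0879, adjusted p = 0.00372 in edgeR's test). In Dp(16)1/Df(16)8 Ctss had a log2 fold change of 0.29 (SE 0.0885, adjusted p = 0.142 in edgeR's test). It lay above the +/+ mean in 9 of 10 animals there. The medians of the 7 were 0.01 and -0.03. Summed levels of 6 endothelial markers, with none at 0, ran from 104 to 185, from 108 to 177 and from 151 to 212 CPM in the same order. None of the 6 was called, while 5 and 6 of the 6 estimates were above 0, with medians of 0.23 and 0.29. The part of these cell types in the antigen processing genes and in Psme2 was not tested.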

How the data were processed

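Cerebral cortex RNA was extracted, depleted of ribosomal RNA and made into libraries, per the labels' protocols. The authors deposited 1 table of raw whole-number counts per gene for 32 libraries. Per the submitters' processing notes, the tools were STAR 2.7.9a, bcl2fastq 2.20 and featureCounts from Subread 1.6.4, and the builds named are GRCh38 and GRCm38.p6. What each build was used for, the strand setting and the annotation release are not given in the sources used here, so counts of genes that overlap on opposite strands, and of genes with near-identical copies, are uncertain. Gene positions came from the GRCm38 annotation.

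Genotype and sex were taken from the labels, and replicate numbers follow accession order. The counts were fitted with edgeR 4.0.16 in R 4.3.3 on the whole table: filterByExpr kept 16042 genes with 99.7% of the counts, libraries were scaled by TMM, and genotype and sex were terms of a quasi-likelihood model of all 32 libraries. Adjusted p-values are Benjamini-Hochberg values over all tested genes, with a threshold of 0.05. The procedure was tested on simulated data. CPM are TMM scaled, and for log2 CPM a prior count of 2 was added. Alternatives used DESeq2 1.42.0, limma 3.58.1 (voom), other scalings, filters, terms and sets of libraries. Members and lists were chosen with earlier results of these data known. Named with values are members called in any contrast, the assembly chaperones and Pomp, the inducible subunits and those they replace, activators and inhibitor, and the 3 highest and 3 lowest fold changes in each contrast; other genes named are stated as such or illustrate a group. The tissue markers not described elsewhere (astrocytes, oligodendrocytes, choroid plexus, meninges, red blood cells, lymphocytes) had 0 genes called except 1 astrocyte marker, Aldoc, lower in Ts65Dn;Df(17)2; no lymphocyte marker had enough counts to be tested. The results of 2 genes, 1 of the antigen processing list and 1 marker, are not reported here.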

Additional observations from a re-analysis of the deposited data

Results flagged for a closer look

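Of 52 groups of 10 animals examined for a sample far from the others, 3 had one, and chance flags about 1 in 20 groups. Psmg1 in Ts65Dn;Df(17)2 replicate 3 had a log2 CPM of 2.2645, with the next animal of that genotype at 2.9056. In Dp(16)1/Df(16)8 replicate 1 the mean deviation of the 19S genes was 0.1237, with the next animal at 0.0282, and that of the base ATPases, which are part of the 19S particle, was 0.1848, with the next at 0.0256.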

How the results depend on the processing

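Against the 2 members called in Ts65Dn;Df(17)2, 1 was called with RLE size factors, with no filter on low counts, with no sex term, without the 2 Ts65Dn;Df(17)2 animals of much lower animal number (replicates 4 and 5) and with the striatal marker score as a term, and 0 with terms for blocks of neighbouring animal numbers. DESeq2 called 3. Leaving out 1 library at a time gave 1 to 3 called members. Psme2 was called in 40 of 42 fits, Psmg1 in 15, Psmb5 in 3 and Psma5 in 1, that without +/+ replicate 11. The counts of 0 called members in the other contrasts and the interaction were 0 in every alternative run, and in each leave-out. Psmg1 had log2 fold changes of 0.36 to 0.50 over 10 other settings, with adjusted p from 0.0208 to 0.185. The numbers of genes called overall in Ts65Dn;Df(17)2 were 637 in the main fit, 1069 with DESeq2, 331 with no filter, 150 with the striatal score and 133 with the blocks.

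For Psmg1 minus Psmg2, leaving out 1 library gave shifts of 0.2446 to 0.45 in Ts65Dn;Df(17)2 and 0.2305 to 0.3673 in Dp(16)1/Df(16)8, none past the threshold. The difference between the aneuploid genotypes ran from -0.0478 to 0.1576 and changed sign without Ts65Dn;Df(17)2 replicates 7 (-0.0274), 8 (-0.0478) or 10 (-0.0086) and without Dp(16)1/Df(16)8 replicates 3 (-0.0084) or 8 (-0.0209). The causes were not tested. No paired analysis was possible because the labels number animals and share no replicate number between genotypes. Genes of a few counts per library, such as Psmb8 and Psmb9, are limited by depth.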
